A study of Homo sapiens with 18 samples.

Results

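The genes described here are 10 signalling genes that act downstream of immune and platelet receptors: VAV1, SYK, PIK3CG, PIK3R5, PLCB2, SH3BP2, LAT, TESPA1, NCF4 and FYB1. They were picked by hand, by name, with expression results of these same libraries in view. They are 10 of the 20833 genes in the count table, and all 10 were among the 12262 genes with enough reads to test. Because values from these libraries were known when the genes were picked, their levels, fold changes and calls describe these libraries and are not independent support for any pattern. The libraries come from MEG-01 (Meg01 in the labels), a human megakaryoblastic leukaemia cell line. Cells of every group were given a lentiviral vector and harvested on day 3 after transduction. The sample titles do not give the share of cells that carried the vector. The 6 groups were ETV6 knockout cells given ETV6 R369W, knockout cells given wild-type ETV6, knockout cells given the empty vector (EV), and cells with a wild-type genotype label, called unedited here, given R369W, ETV6 or EV. Each group held 3 libraries, numbered 1, 2 and 4 in knockout cells and 2, 3 and 4 in unedited cells. No source used here says whether these numbers stand for clones, cultures or days.

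Immune receptors and the collagen receptor of platelets carry tyrosine motifs that recruit the kinase SYK once they are phosphorylated. SYK and its relatives phosphorylate scaffold proteins such as LAT, on which adaptors, exchange factors for small GTPases and phospholipases C assemble, and the outcome is calcium release, actin remodelling and integrin activation. A parallel route runs from G protein coupled receptors to PI3 kinase gamma and phospholipase C beta. ETV6 represses transcription and belongs to the ETS factors, which bind DNA around a GGAA core.

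Gene reads numbered 12577816 to 18927506 per library. ETV6 reads averaged 1692 ± 372 CPM in knockout R369W cells, 1969 ± 354 CPM in knockout ETV6 cells, 85.1 ± 40.7 CPM in knockout EV cells, 2541 ± 425 CPM in unedited R369W cells, 2440 ± 161 CPM in unedited ETV6 cells and 96.3 ± 42.7 CPM in unedited EV cells (SD, n = 3 each). CPM are counts scaled to a common library size. Both vectors therefore gave high ETV6 reads, while the counts did not separate knockout EV from unedited EV cells and do not show the edit. The unaligned share stood at 0.279% to 0.349% in R369W and ETV6 libraries and at 0.527% to 0.809% in EV libraries. The library codes in the labels of knockout ETV6 replicate 1 and knockout R369W replicate 4 stand among the codes of the other vector. The levels below show both libraries with the group their titles give, and calls that change without them are named. The cell line's own markers were present: ITGA2B, the platelet integrin alpha chain, ran from 779 to 1662 CPM, and NFE2, GATA1 and RUNX1 were all above 119 CPM in every library. Of 20 megakaryocyte markers 14 were tested, and PF4, a late granule product, had 0 reads. Of 17 counted T and NK cell markers, 5 were tested and the CD3 chains had 1 or 2 reads over all libraries, while the B cell marker MS4A1 and the neutrophil granule genes ELANE and PRTN3 had 0. Other markers of these lineages were present: CD4 ran from 76.6 to 171 CPM, NCAM1 from 0.756 to 131 CPM and ITGAM from 23.2 to 169 CPM. SPI1 ran from 17.8 to 59.4 CPM and LYZ from 14.3 to 47.9 CPM. Of 9 counted mast cell markers 8 were tested, with HDC at 386 to 966 CPM and GATA2 at 181 to 376 CPM.

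VAV1 (ENSG00000141968, GRCh38 chromosome 19, 6772714 to 6857366, plus strand) encodes a guanine nucleotide exchange factor for RAC GTPases that SYK phosphorylates. In knockout cells VAV1 had 203, 349 and 223 CPM with R369W, 72.8, 72.3 and 77.0 CPM with ETV6, and 233, 193 and 276 CPM with EV. In unedited cells it had 170.1, 218 and 187 CPM with R369W, 46.5, 61.8 and 46.9 CPM with ETV6, and 107, 141 and 87.6 CPM with EV. The ETV6 libraries were the lowest 6 of the 18, with no overlap with either other vector, and knockout R369W and knockout EV overlapped.

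SYK (ENSG00000165025, chromosome 9, 90801787 to 90898549, plus strand), the kinase at the head of the pathway, had 127, 109 and 108 CPM with R369W, 63.0, 60.1 and 60.7 CPM with ETV6, and 101, 119.9 and 97.7 CPM with EV in knockout cells. The unedited cells had 101, 116 and 91.5 CPM with R369W, 47.1, 56.0 and 44.2 CPM with ETV6, and 87.7, 93.8 and 73.3 CPM with EV. Again the ETV6 libraries lay below all others, and the R369W and EV libraries overlapped in both genotypes.

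PIK3CG (ENSG00000105851, chromosome 7, 106865278 to 106907145, plus strand) encodes the catalytic subunit of PI3 kinase gamma. It had 113, 107 and 107 CPM with R369W, 49.96, 46.5 and 58.1 CPM with ETV6, and 131, 125 and 129 CPM with EV in knockout cells. In unedited cells PIK3CG had 119.6, 122 and 114 CPM with R369W, 42.2, 40.8 and 34.8 CPM with ETV6, and 84.7, 91.3 and 69.3 CPM with EV. No 2 neighbouring groups overlapped in the order of means, which ran from knockout EV (128 CPM) through unedited R369W (119 CPM), knockout R369W (109 CPM), unedited EV (81.7 CPM) and knockout ETV6 (51.5 CPM) to unedited ETV6 (39.3 CPM).

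**Figure D1:**
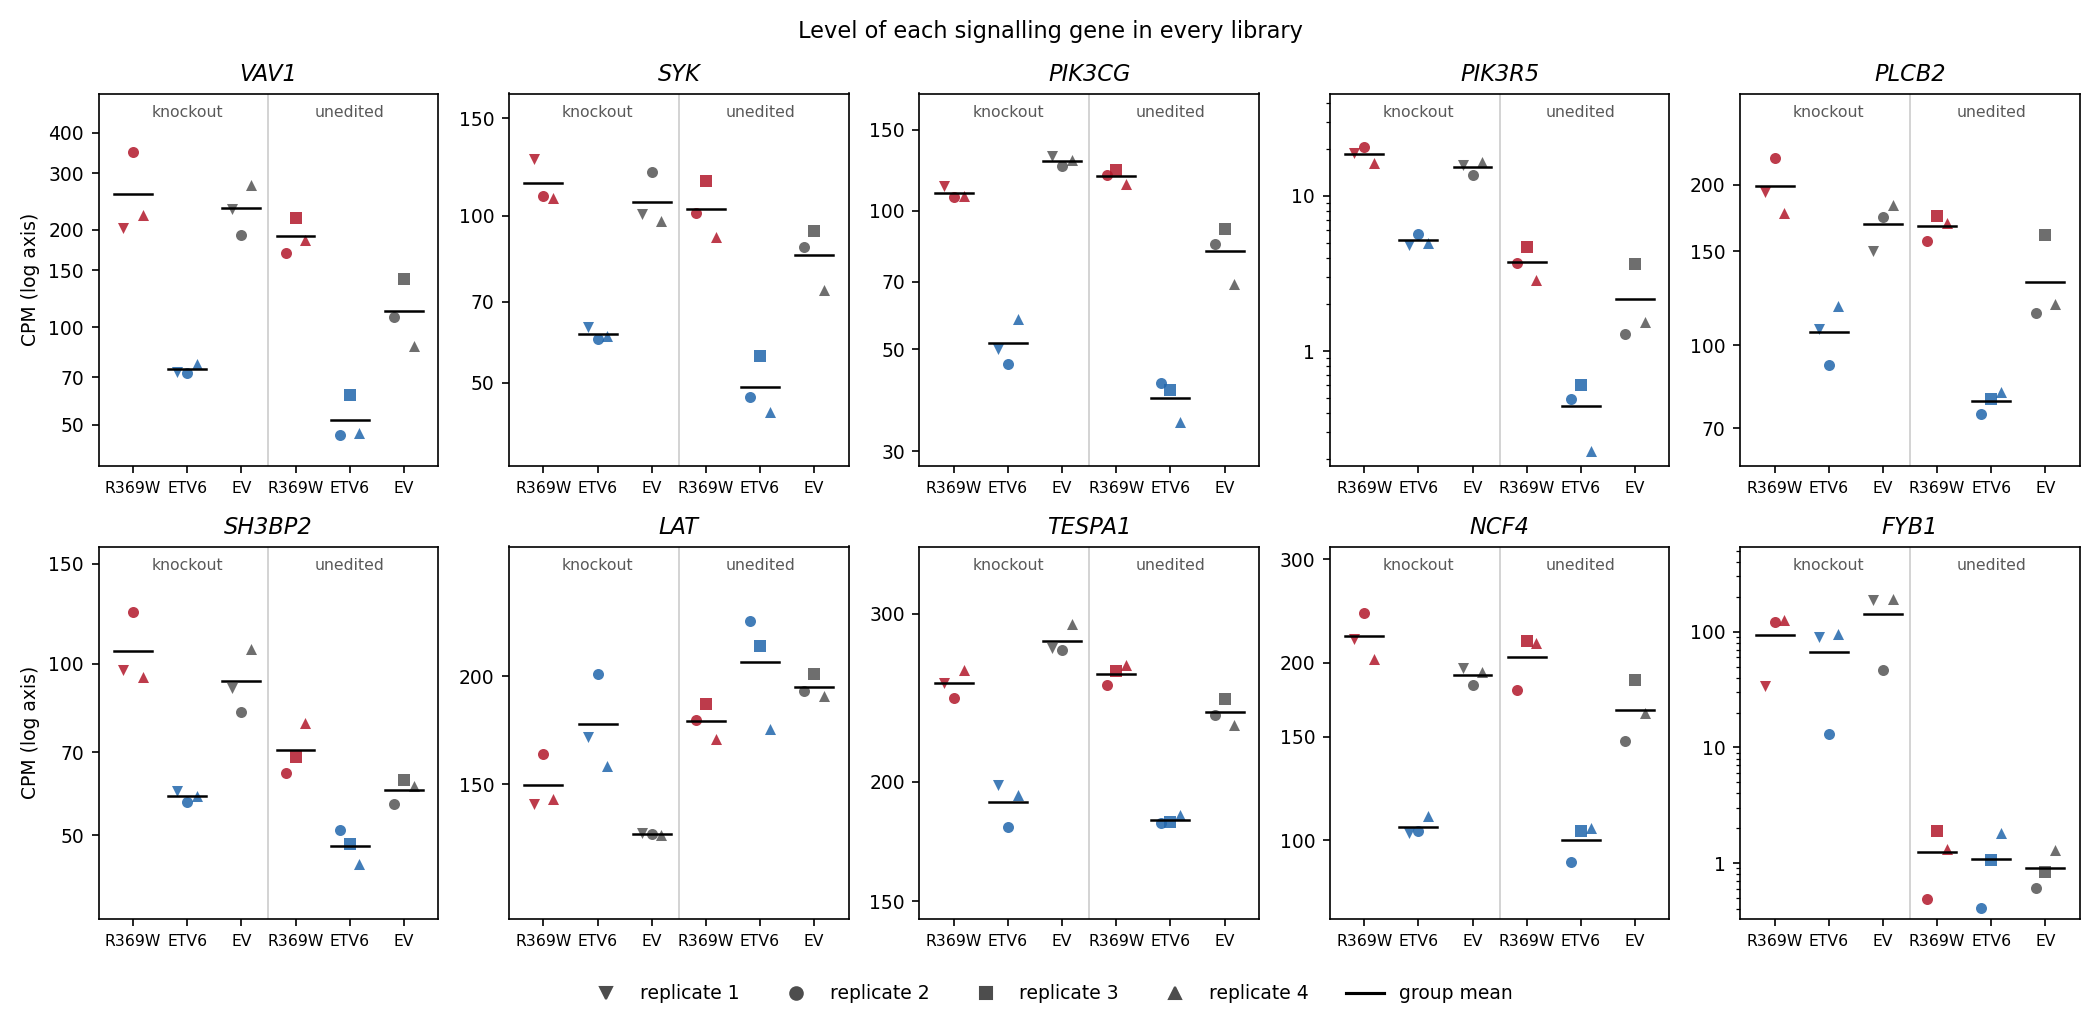
Level of each of the 10 genes in every library, in CPM on a log axis, with knockout groups left of unedited groups and the vectors R369W, ETV6 and EV within each; shapes give the replicate number and bars the group mean. For VAV1 the ETV6 libraries sit between 46.5 and 77.0 CPM, below all R369W and EV libraries, while LAT shows its lowest mean in knockout EV cells and FYB1 is near the floor in all unedited libraries.

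Promoter sequence of the members is described here. All but LAT and FYB1, 8 of the 10 genes, were called higher with R369W than with ETV6 in both genotypes. The shares of all tested genes called higher were 1.07% in knockout and 1.13% in unedited cells. RefSeq windows on GRCh38.p14, from 250 bases before to 50 after an annotated start, were at hand for 7 of the 10 genes, in 15 windows; PLCB2, TESPA1 and NCF4 had none. The 6-letter string GGAAGT, searched on both strands, was in 22.8% of all 35116 windows and in 5 of the 15 member windows, 1 each for VAV1, SYK, PIK3CG, SH3BP2 and FYB1. The longer AGGAAGT, which contains it, was in 8.24% of all windows and in the same 5 member windows. By gene, GGAAGT was in 26.6% and AGGAAGT in 9.91% of the 27305 genes with a window. Each was in 5 of the 7 members with a window, and a gene with several windows has more places for a match. PIK3R5, called in both genotypes, had windows without a match. FYB1, called in neither, had a match, but its levels spread widely in knockout libraries and were near the floor in unedited ones. LAT, called in neither, had none. CCGGAAGT was in 4.14% of all windows and in none of the member windows, which says only that these letters are not there. The strings were looked at after expression values were seen, no binding was measured, and a match is a description. Capitals mark GGAAGT, or its reverse complement ACTTCC.
VAV1, 250 bases to the start site, chr19:6772458-6772707, plus strand: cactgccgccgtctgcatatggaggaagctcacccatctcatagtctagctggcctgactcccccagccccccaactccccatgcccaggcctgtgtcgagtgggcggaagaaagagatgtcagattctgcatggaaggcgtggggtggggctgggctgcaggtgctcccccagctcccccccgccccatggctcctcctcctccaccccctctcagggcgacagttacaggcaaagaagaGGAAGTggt
SYK, farther match, chr9:90801727-90801756, plus strand: gcgacactgggaGGAAGTgcgggccgcctg
SYK, nearer match, chr9:90801759-90801788, plus strand: cgggcgcgttaaGGAAGTtgcccaaaatga
PIK3CG, farthest match, chr7:106865252-106865281, plus strand: aacttggttaaaACTTCCttcctggtaact
PIK3CG, middle match, chr7:106865275-106865304, plus strand: ggtaactgcaacACTTCCtctgcatctgga
PIK3CG, nearest match, chr7:106865469-106865498, plus strand: cggaatagtggcACTTCCttctcggctaga
SH3BP2, farther match, chr4:2812194-2812223, plus strand: gggtagaaggcaGGAAGTgccggctacttg
SH3BP2, nearer match, chr4:2812236-2812265, plus strand: gagcagggaacaGGAAGTcccgggtgggga
FYB1, chr5:39270653-39270682, minus strand: cagctcagaaaaGGAAGTacactctgcata

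Counted from the start site, the GGAAGT match lay at -9 to -4 in VAV1 and at -21 to -16 in FYB1. The matches lay at -80 to -75 and -48 to -43 in SYK, and at -85 to -80 and -43 to -38 in SH3BP2. In PIK3CG all 3 were on the opposite strand, at -215 to -210, -192 to -187 and 3 to 8. Every match was preceded by A, so that AGGAAGT was found at each of these places.

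PIK3R5 (ENSG00000141506, chromosome 17, 8878911 to 8965712, minus strand) encodes a regulatory subunit of PI3 kinase gamma that answers to G protein beta-gamma. Its knockout libraries had 18.8, 20.8 and 16.3 CPM with R369W, 4.83, 5.68 and 4.99 CPM with ETV6, and 15.7, 13.7 and 16.6 CPM with EV. Unedited libraries had 3.69, 4.67 and 2.87 CPM with R369W, 0.492, 0.603 and 0.226 CPM with ETV6, and 1.29, 3.64 and 1.54 CPM with EV. All 9 knockout libraries were above all 9 unedited ones, and within each genotype the ETV6 libraries were lowest. The unedited ETV6 libraries held 17 PIK3R5 reads in all, so their level is coarse.

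PLCB2 (ENSG00000137841, chromosome 15, 40278176 to 40307935, minus strand) encodes a phospholipase C that G proteins activate. It had 194, 224 and 177 CPM with R369W, 107, 91.9 and 118 CPM with ETV6, and 150.3, 174 and 183 CPM with EV in knockout cells. In unedited cells PLCB2 had 157, 174 and 169.6 CPM with R369W, 74.3, 79.5 and 81.9 CPM with ETV6, and 115, 161 and 119 CPM with EV. The 3 unedited ETV6 libraries were the lowest of all, and knockout ETV6 overlapped unedited EV.

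SH3BP2 (ENSG00000087266, chromosome 4, 2793023 to 2841098, plus strand) encodes an adaptor that binds SYK, VAV proteins and phospholipase C gamma. Knockout cells had 97.4, 123 and 94.8 CPM with R369W, 59.8, 57.3 and 58.6 CPM with ETV6, and 90.9, 82.3 and 106 CPM with EV. The unedited cells had 64.2, 68.6 and 78.9 CPM with R369W, 51.0, 48.4 and 44.6 CPM with ETV6, and 56.9, 62.7 and 61.0 CPM with EV. SH3BP2 spanned a narrower range than VAV1 or PIK3CG, and its knockout ETV6 libraries overlapped unedited EV.

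NCF4 (ENSG00000100365, chromosome 22, 36860988 to 36878015, plus strand) encodes a cytosolic subunit of the phagocyte NADPH oxidase. It had 219.7, 243 and 203 CPM with R369W, 103, 104 and 109.8 CPM with ETV6, and 196, 183 and 193 CPM with EV in knockout cells. Unedited cells had 179.8, 218 and 216 CPM with R369W, 91.9, 104 and 105 CPM with ETV6, and 148, 187 and 165 CPM with EV. The ETV6 libraries of both genotypes overlapped each other and stood below the other 12.

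TESPA1 (ENSG00000135426, chromosome 12, 54948018 to 54984746, minus strand), known from mouse thymocytes as a component of T cell receptor signalling, had 254, 245 and 262 CPM with R369W, 198, 179 and 194 CPM with ETV6, and 276, 275 and 293 CPM with EV in knockout cells. Unedited TESPA1 levels were 252, 261 and 265 CPM with R369W, 181, 182 and 185 CPM with ETV6, and 235, 244 and 229.5 CPM with EV. The gaps between groups were small in size, but the ETV6 libraries did not overlap the others.

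LAT (ENSG00000213658, chromosome 16, 28984826 to 28990783, plus strand), the membrane scaffold of T cells, mast cells and platelets, was arranged the other way round. It had 143, 163 and 144 CPM with R369W, 170.1, 201 and 157 CPM with ETV6, and 132, 131 and 131 CPM with EV in knockout cells, and 178, 186 and 169 CPM with R369W, 232, 217 and 174 CPM with ETV6, and 192, 201 and 190.0 CPM with EV in unedited cells. Knockout EV cells had the lowest LAT and unedited ETV6 cells the highest mean. In GENCODE release 29 LAT shares 454 bases with an antisense gene and 2112 with a transcript on its own strand. PLCB2 shares 357 bases, and NCF4 27, with antisense genes. None of these partners is in the count table and no source used here gives the strand setting of the counts, so reads of LAT, PLCB2 and NCF4 carry that uncertainty.

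FYB1 (ENSG00000082074, chromosome 5, 39105255 to 39274528, minus strand), an adaptor that links receptor signalling to integrin activation, was near the floor in unedited cells and present in knockout cells. The knockout libraries had 33.7, 122 and 126 CPM with R369W, 89.3, 13.1 and 96.2 CPM with ETV6, and 186, 46.8 and 193 CPM with EV. In unedited libraries FYB1 had 0.492, 1.90 and 1.32 CPM with R369W, 0.410, 1.06 and 1.81 CPM with ETV6, and 0.605, 0.834 and 1.29 CPM with EV, where 3 reads correspond to 0.156 to 0.246 CPM. Knockout and unedited libraries did not overlap, but each knockout group held 1 library far below its other two: the library labelled replicate 2 with ETV6 and with EV, and that labelled replicate 1 with R369W. In bulk RNA, fewer cells expressing a gene and less RNA per cell cannot be told apart.

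Per kilobase of annotated exon, the mean levels in unedited EV cells ran from 94.7 CPM per kb for NCF4, 47.0 for TESPA1 and 43.9 for LAT, through 26.0 for VAV1, 17.9 for PLCB2, 16.3 for SYK and 13.8 for PIK3CG, to 4.31 for SH3BP2, 0.287 for PIK3R5 and 0.103 for FYB1. On this scale PIK3R5 and FYB1 were the least abundant of the 10 genes in unedited EV cells.

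Knockout against unedited cells, both with EV, compared the 2 genotype labels. Loss of ETV6 and any other difference between these 2 cell populations cannot be told apart in it. Members higher in knockout EV cells were FYB1, PIK3R5, VAV1, PIK3CG, SH3BP2 and TESPA1, and LAT was lower. These 6 higher and 1 lower of 10 stand beside 3.31% of all tested genes that passed the test as higher and 1.02% as lower, by edgeR's quasi-likelihood F test with Benjamini-Hochberg adjustment over 12262 genes. VAV1 averaged 234 ± 41.6 CPM in knockout EV cells and 112 ± 26.9 CPM in unedited EV cells (SD, n = 3 each), a log2 fold change of 1.06 (SE 0.21). PIK3R5 averaged 15.4 ± 1.495 CPM in knockout EV and 2.15 ± 1.29 CPM in unedited EV cells, 7.13-fold higher in knockout cells, a log2 fold change of 2.83 that was 3.43 without unedited EV replicate 3. The fitted log2 fold change of FYB1 was 7.24 (SE 0.93), those of PIK3CG and SH3BP2 were 0.65 (SE 0.11) and 0.63 (SE 0.12), and that of LAT was -0.57 (SE 0.10). SYK, PLCB2 and NCF4 had log2 fold changes of 0.32, 0.36 and 0.20 and did not pass. TESPA1, at a log2 fold change of 0.25, lost its call without the filter on low counts, without unedited EV replicate 2 or 4 or without knockout EV replicate 1 or 4, and PLCB2 gained one, at 0.53, without unedited EV replicate 3. The T and NK cell marker sum moved with these genes, at 147 to 248 CPM in knockout EV and 94.3 to 114 CPM in unedited EV cells, nearly all of it CD4 and NCAM1. The B cell marker sum was 18.3 to 25.2 CPM in knockout EV and 10.7 to 13.2 CPM in unedited EV cells, with 5 of its 12 genes at 0 reads, and the mast cell marker sum was 1355 to 1470 CPM in knockout EV and 779 to 1321 CPM in unedited EV cells. The part of these lists in the result was not tested.

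Adding ETV6 to knockout cells lowered 8 of the 10 genes relative to EV: VAV1, PIK3R5, PIK3CG, NCF4, SYK, PLCB2, SH3BP2 and TESPA1, beside 1.57% of all tested genes. VAV1 averaged 74.0 ± 2.63 CPM in knockout ETV6 and 234 ± 41.6 CPM in knockout EV cells (SD, n = 3 each), and PIK3CG averaged 51.5 ± 5.98 CPM in knockout ETV6 and 128 ± 3.25 CPM in knockout EV cells. The log2 fold changes were -1.66 (SE 0.21) for VAV1, -1.57 (SE 0.32) for PIK3R5, -1.32 (SE 0.11) for PIK3CG, -0.86 (SE 0.10) for NCF4 and -0.79 (SE 0.12) for SYK, and -0.68, -0.67 and -0.56 for PLCB2, SH3BP2 and TESPA1. The median over the 10 genes was -0.82, beside -0.0018 over all tested genes. LAT, at 0.42 (SE 0.10), and FYB1, at -1.10 (SE 0.65), did not pass. With the replicate number as a block, 9 genes were lower, FYB1 among them at -1.21 (SE 0.11), and LAT was higher, beside 13.9% lower and 10.8% higher of the 11764 genes in that fit. PIK3R5 lost its call without any 1 of knockout ETV6 replicates 1, 2 and 4 or knockout EV replicates 1 and 4. PLCB2 lost it without knockout ETV6 replicate 1 or 2 or knockout EV replicate 4, LAT gained one, at 0.50, without knockout ETV6 replicate 4, and PIK3R5 and PLCB2 lost theirs without both libraries of doubtful code. DESeq2 called LAT as higher with ETV6.

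The knockout EV libraries serve in both of these comparisons, so the opposite directions of the 2 sets of fold changes are not independent of each other. Set side by side, ETV6 in knockout cells against EV in unedited cells gives values that do not use the knockout EV libraries. Its 2 groups come from these same comparisons, so it is not independent of either. FYB1, at a log2 fold change of 6.14 (SE 0.91), and PIK3R5, at 1.26 (SE 0.33; 1.86 without unedited EV replicate 3), were higher in knockout ETV6 cells than in unedited EV cells, 2 of 10 genes beside 2.66% of all tested genes. NCF4 (-0.66), PIK3CG (-0.67), SYK (-0.47) and TESPA1 (-0.31) were lower, 4 of 10 beside 1.97%. VAV1 (-0.60), PLCB2 (-0.32), LAT (-0.14) and SH3BP2 (-0.04) did not pass. The call of SYK was lost without any 1 of knockout ETV6 replicates 1, 2 and 4 or unedited EV replicates 2 and 3, and that of PIK3R5 without any 1 of knockout ETV6 replicates 1, 2 and 4 or unedited EV replicates 2 and 4. Both calls were also lost without both libraries of doubtful code, which leaves out knockout ETV6 replicate 1, and without the filter on low counts.

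Adding ETV6 to unedited cells lowered 7 of the 10 genes relative to EV, beside 0.285% of all tested genes. These were PIK3CG, NCF4, SYK, TESPA1, VAV1, PIK3R5 and PLCB2. PIK3CG averaged 39.3 ± 3.91 CPM in unedited ETV6 and 81.7 ± 11.3 CPM in unedited EV cells (SD, n = 3 each), a log2 fold change of -1.06 (SE 0.11). VAV1 had -1.11 (SE 0.21), SYK -0.79 (SE 0.12), NCF4 -0.73 (SE 0.10), PLCB2 -0.74 (SE 0.13), TESPA1 -0.37 (SE 0.06) and PIK3R5 -2.26 (SE 0.40). SH3BP2 (-0.33), LAT (0.09) and FYB1 (0.25, SE 1.16) did not pass, though SH3BP2 did with the replicate number as a block, when 8 genes were lower beside 5.49% of 11733 genes. The calls of VAV1 and of PIK3R5, PLCB2, SYK and TESPA1 depended on single libraries: all 5 were lost without unedited EV replicate 3 or unedited ETV6 replicate 2. Unedited ETV6 replicate 3 decided VAV1, PIK3R5, PLCB2 and TESPA1, unedited ETV6 replicate 4 decided VAV1, PIK3R5 and PLCB2, and unedited EV replicate 2 decided VAV1. Without unedited EV replicate 3 the log2 fold change of PIK3R5 was -1.67.

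**Figure D2:**
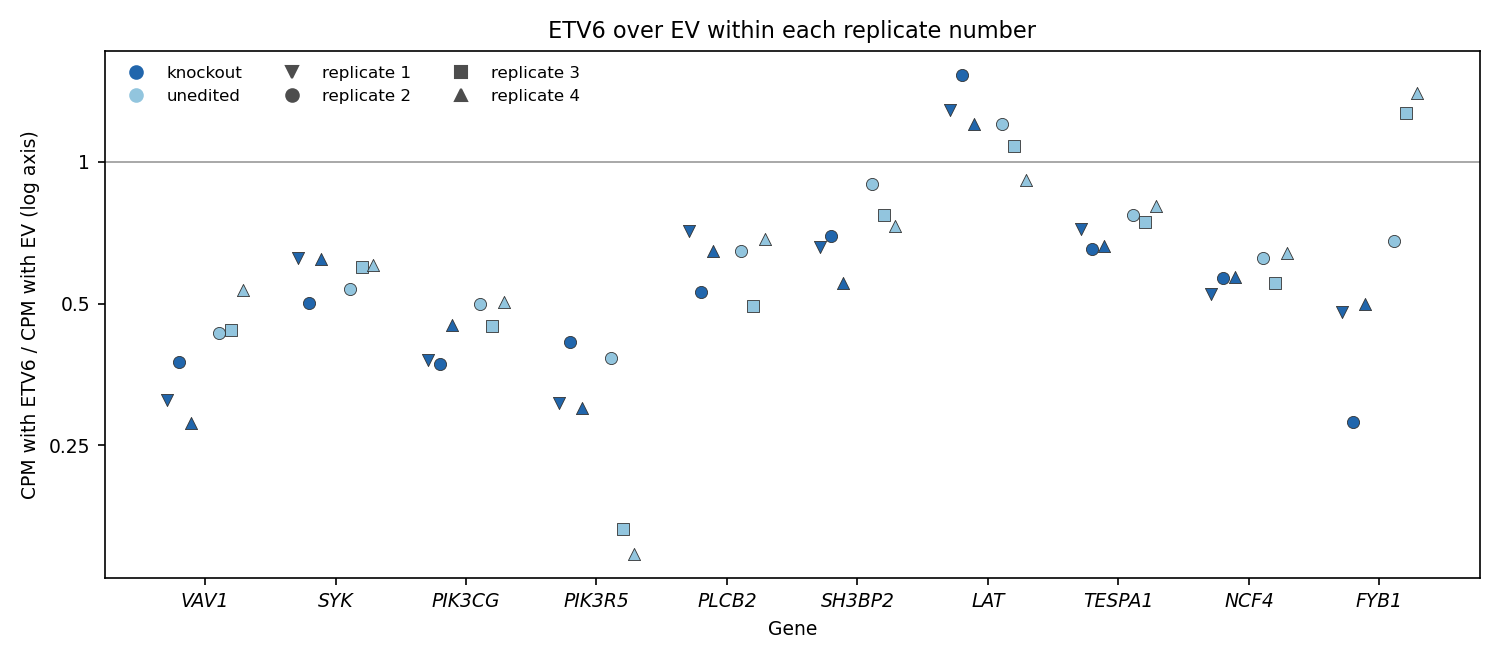
Ratio of CPM with ETV6 to CPM with EV between libraries of the same replicate number, on a log axis, for each gene in knockout cells (dark, left) and unedited cells (light, right); the line marks a ratio of 1. VAV1 lies at 0.279 to 0.375 in knockout and 0.433 to 0.535 in unedited pairs, and LAT lies above 1 in all but 1 pair.

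Within replicate numbers, VAV1 with ETV6 was 0.313, 0.375 and 0.279 times its EV level in knockout cells and 0.433, 0.439 and 0.535 times in unedited cells. PIK3CG ratios were 0.380, 0.372 and 0.451 in knockout cells and 0.498, 0.447 and 0.503 in unedited cells. FYB1 showed the use of the pairs: its knockout ratios were 0.479, 0.280 and 0.498 although its levels ranged widely, while its unedited ratios, at low counts, were 0.677, 1.27 and 1.40. LAT ratios were 1.29, 1.53 and 1.202 in knockout and 1.205, 1.08 and 0.916 in unedited cells. The interaction of ETV6 with genotype passed in none of the 10 genes by edgeR, beside 0.0245% of all tested genes with a lower interaction. At an unadjusted p under 0.05 there were 2 genes, beside 1.9% of all tested genes, and DESeq2 called 0.

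R369W against ETV6, the comparison of the variant with the wild-type protein, gave 8 higher genes in knockout cells and 8 in unedited cells, beside 1.07% and 1.13% of all tested genes. The same 8 passed in both: VAV1, SYK, PIK3CG, PIK3R5, PLCB2, SH3BP2, TESPA1 and NCF4. The ETV6 libraries also serve in ETV6 against EV, so the results of these 2 comparisons are not independent of each other. In knockout cells VAV1 averaged 258 ± 79.3 CPM with R369W and 74.0 ± 2.63 CPM with ETV6 (SD, n = 3 each), a log2 fold change of 1.80 (SE 0.21), and in unedited cells it averaged 192 ± 24.5 CPM with R369W and 51.7 ± 8.72 CPM with ETV6, at 1.89 (SE 0.22). PIK3CG had 1.08 (SE 0.11) in knockout and 1.60 (SE 0.11) in unedited cells, SYK 0.90 (SE 0.12) and 1.06 (SE 0.12), NCF4 1.07 (SE 0.10) and 1.03 (SE 0.10), and PLCB2 0.91 (SE 0.13) and 1.09 (SE 0.13). PIK3R5 had 1.85 (SE 0.32) in knockout and 3.06 (SE 0.39) in unedited cells. SH3BP2 had 0.84 in knockout and 0.56 in unedited cells, and TESPA1 0.41 in knockout and 0.51 in unedited cells. LAT, at -0.23 in knockout and -0.22 in unedited cells, and FYB1, at 0.51 (SE 0.64) and 0.17 (SE 1.13), did not pass. With the replicate number as a block, unedited LAT was also called, as lower with R369W than with ETV6 at -0.22 (SE 0.07), beside 10.2% higher and 6.67% lower of 11733 genes. The unedited call of SH3BP2 was lost without any 1 of unedited R369W replicates 3 and 4 or unedited ETV6 replicates 2, 3 and 4, and the knockout call of PIK3R5 without both libraries of doubtful code.

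**Figure D3:**
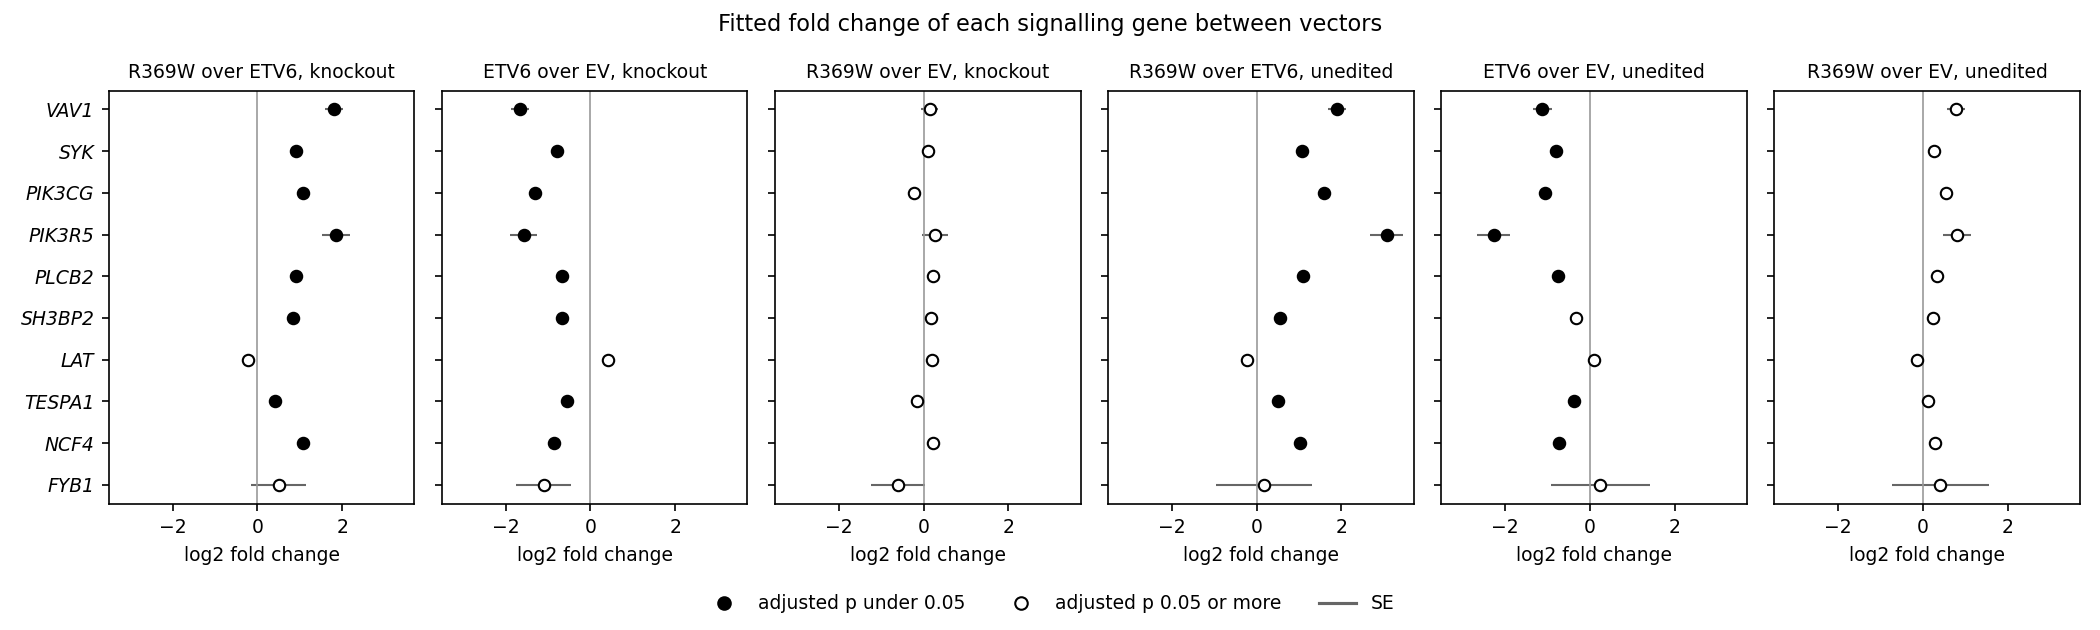
Fitted log2 fold change of each gene between vectors, with the SE as a line, for R369W over ETV6, ETV6 over EV and R369W over EV in knockout cells (left) and unedited cells (right); filled points have an adjusted p under 0.05. In R369W over ETV6 the same 8 genes are filled on the right of 0 in both genotypes, and in R369W over EV no point is filled.

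The summed level of the neutrophil and monocyte marker list, which shares no gene with the 10, moved with them across vectors. The sum was 132 to 204 CPM in knockout R369W, 65.1 to 83.0 CPM in knockout ETV6 and 141 to 208 CPM in knockout EV cells. In unedited cells it was 224 to 270 CPM with R369W, 84.1 to 111 CPM with ETV6 and 147 to 231 CPM with EV. Nearly all of it came from ITGAM, SPI1 and LYZ, at up to 169, 59.4 and 47.9 CPM in any library. Among the other listed genes CSF1R reached the highest level, 2.13 CPM. Of the list's 14 genes 5 were tested, ITGAM, LYZ and SPI1 among them, and ELANE and PRTN3 had 0 reads. The part of this list in the results was not tested.

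R369W against EV gave no call among the 10 genes in either genotype by edgeR. In knockout cells, where 0.00816% of all tested genes passed as higher and 0.0489% as lower, the log2 fold changes were 0.14 (SE 0.21) for VAV1, 0.11 (SE 0.12) for SYK, -0.23 (SE 0.10) for PIK3CG, 0.28 for PIK3R5, 0.23 for PLCB2, 0.17 for SH3BP2, 0.19 for LAT, -0.15 for TESPA1, 0.22 for NCF4 and -0.60 (SE 0.64) for FYB1. At an unadjusted p under 0.05 there were 3 of 10 genes, beside 13.8% of all tested genes, and DESeq2 called 0. In unedited cells, where 0.0245% of all tested genes passed as higher, the log2 fold changes were 0.78 (SE 0.21) for VAV1, 0.27 (SE 0.12) for SYK, 0.54 (SE 0.11) for PIK3CG, 0.80 (SE 0.33) for PIK3R5, 0.34 (SE 0.13) for PLCB2 and 0.30 (SE 0.10) for NCF4. SH3BP2 had 0.23, TESPA1 0.13, LAT -0.13 and FYB1 0.42 (SE 1.15). At an unadjusted p under 0.05 there were 7 of 10, beside 2.02% of all tested genes, and DESeq2 called 1, PIK3CG, beside 0.0985% of genes higher. With the replicate number as a block 5 were higher with R369W than with EV, namely NCF4, PIK3CG, PLCB2, VAV1 and SYK, beside 1.79% of 11733 genes.

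Whether the R369W change depended on genotype was tested by the interaction, knockout minus unedited, and among the 10 genes PIK3CG had the value farthest from 0 relative to its SE, -0.77 (SE 0.15) on the log2 scale. It averaged 109 ± 3.29 CPM with R369W and 128 ± 3.25 CPM with EV in knockout cells, and 119 ± 4.26 CPM with R369W and 81.7 ± 11.3 CPM with EV in unedited cells (SD, n = 3 each). The interaction did not pass in edgeR for any of the 10 genes, beside 0.0408% of all tested genes with a lower interaction. At an unadjusted p under 0.05 there were 4, beside 4.24% of all tested genes, and DESeq2 called 1, PIK3CG, beside 0.114% of genes lower.

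Across the 18 libraries the log2 levels of most members were close to each other in pattern. The highest Pearson correlations were 0.971 between PIK3CG and TESPA1, 0.960 between VAV1 and PLCB2, and 0.955 between SYK and PIK3CG. LAT was negatively correlated with the other 9, at -0.799 with FYB1 to -0.542 with NCF4. These values are descriptions over 18 libraries that fall into 6 groups and share their vectors. Among 10737 other genes, the levels most like VAV1 were those of WAS (0.971), the regulator of actin branching mutated in Wiskott-Aldrich syndrome, DYNC2H1 (0.970), a dynein heavy chain, and NBEAL2 (0.963), needed for platelet alpha granules. The closest to SYK were KCNK6 (0.975), a potassium channel, GBGT1 (0.975) and ARHGAP27 (0.970). The closest to PIK3CG were CD24 (0.973), a surface glycoprotein with near-identical copies that may share its reads, MCTP2 (0.966) and RNPEP (0.964).

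Outside the 10, 184 genes of the same pathway were grouped in 10 lists by textbook role, with earlier results of these data known, and 141 of them were tested. In knockout EV against unedited EV cells 16 were higher and 1 was lower, 11.3% and 0.709% of the 141, with a median log2 fold change of 0.15. In knockout ETV6 against knockout EV cells 7 were lower (4.96%), and in unedited ETV6 against unedited EV cells 3 were lower (2.13%): WAS, CD33 and YES1, the last with a call lost without any 1 of the 6 libraries (adjusted p up to 0.268). In R369W against ETV6, 6 were higher in knockout cells (4.26%) and 8 in unedited cells (5.67%). The shares of all tested genes were 3.31% higher and 1.02% lower, 1.57% lower, 0.285% lower, 1.07% higher and 1.13% higher in these contrasts, and whether the lists stand apart was not tested. With the replicate number as a block, knockout ETV6 against EV had 43 lower and 18 higher of 138, beside 13.9% and 10.8% of all genes in that fit. In the same fit unedited ETV6 against EV had 30 lower of 132, beside 5.49%, and unedited R369W against ETV6 had 50 higher and 10 lower of 132, beside 10.2% and 6.67%.

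Of 13 tested Src, Tec and Syk family kinases and their controls, YES1, PAG1, TEC and TXK were higher in knockout EV than in unedited EV cells. YES1, a Src family kinase, averaged 157 ± 36.1 CPM in knockout EV and 74.3 ± 6.37 CPM in unedited EV cells (SD, n = 3 each; edgeR adjusted p = 0.0016). It averaged 51.8 ± 2.62 CPM in knockout ETV6 cells, a log2 change of -1.60 (SE 0.17) from knockout EV (adjusted p = 8.09e-05), and was also higher with R369W than with ETV6 in both genotypes. Of 11 tested receptors and chains with tyrosine motifs, CD79A, the B cell receptor chain, was higher in knockout EV than in unedited EV cells, at 11.8 ± 3.25 CPM against 0.295 ± 0.118 CPM (13 reads in all), and lower in knockout ETV6 than in knockout EV cells, at 0.477 ± 0.108 CPM in knockout ETV6. It was also lower in knockout R369W than in knockout EV cells, at 1.11 ± 0.285 CPM against 11.8 ± 3.25 CPM (adjusted p = 0.0271), a call lost without any 1 of the 6 libraries. FCER1G, the chain through which the collagen receptor signals to SYK, was higher with R369W than with ETV6 in unedited cells. It averaged 74.1 ± 30.8 CPM with R369W and 18.0 ± 5.08 CPM with ETV6 there (edgeR adjusted p = 0.00167). In knockout cells FCER1G had 53.6 ± 7.22 CPM with R369W and 22.7 ± 0.948 CPM with ETV6, which did not pass (edgeR adjusted p = 0.0535).

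Of 19 tested genes of the list of VAV, RAC and actin, WAS followed the members in the contrasts with ETV6. It averaged 41.7 ± 4.88 CPM in knockout ETV6 and 83.3 ± 2.74 CPM in knockout EV cells (edgeR adjusted p = 0.00116), and 85.4 ± 15.2 CPM with R369W and 30.5 ± 3.28 CPM with ETV6 in unedited cells (adjusted p = 6.88e-05). VASP, an actin filament elongation factor, was higher with R369W than with ETV6 in unedited cells (adjusted p = 0.00248). It was also higher in knockout R369W than in knockout ETV6 cells (adjusted p = 0.0187), a call lost without any 1 of knockout R369W replicates 2 and 4 or knockout ETV6 replicates 2 and 4. Its call as higher in knockout EV than in unedited EV cells (adjusted p = 0.0279) was lost without any 1 of knockout EV replicates 1 and 4 or unedited EV replicates 2 and 4. CD33, an inhibitory receptor of myeloid cells, was lower in knockout ETV6 than in knockout EV cells, at 122 ± 11.0 CPM against 356 ± 18.9 CPM (adjusted p = 4.3e-06). CXCR4, a chemokine receptor that signals to PI3 kinase gamma, was higher in knockout EV than in unedited EV cells. It averaged 17.7 ± 5.13 CPM against 0.582 ± 0.263 CPM (24 reads in all). In knockout ETV6 cells CXCR4 was lower, at 3.10 ± 0.334 CPM, than in knockout EV cells. Knockout R369W cells had 5.89 ± 0.810 CPM, which did not pass against knockout EV or knockout ETV6.

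Some partners of the members differed between genotypes and did not pass on ETV6. PIK3CD, the catalytic subunit of PI3 kinase delta, averaged 37.2 ± 11.4 CPM in knockout ETV6, 40.1 ± 9.96 CPM in knockout EV and 10.7 ± 1.38 CPM in unedited EV cells (edgeR adjusted p of knockout EV against unedited EV, 0.00038). ITPR3, a calcium release channel, averaged 43.3 ± 8.13 CPM in knockout ETV6, 38.2 ± 4.21 CPM in knockout EV and 16.4 ± 3.11 CPM in unedited EV cells. LAIR1, an inhibitory collagen receptor, averaged 8.19 ± 4.401 CPM in knockout ETV6, 10.3 ± 4.44 CPM in knockout EV and 0.204 ± 0.118 CPM (9 reads in all) in unedited EV cells. All 3 were higher in knockout ETV6 and in knockout EV cells than in unedited EV cells, and knockout ETV6 against knockout EV did not pass for any of the 3, with or without the replicate block. GAB2, an adaptor that recruits PI3 kinase and SHP2, was the only listed gene lower in knockout EV than in unedited EV cells, at 106 ± 13.9 CPM against 185 ± 19.9 CPM (adjusted p = 0.0112), a call lost without knockout EV replicate 4 or unedited EV replicate 4.

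**Figure D4:**
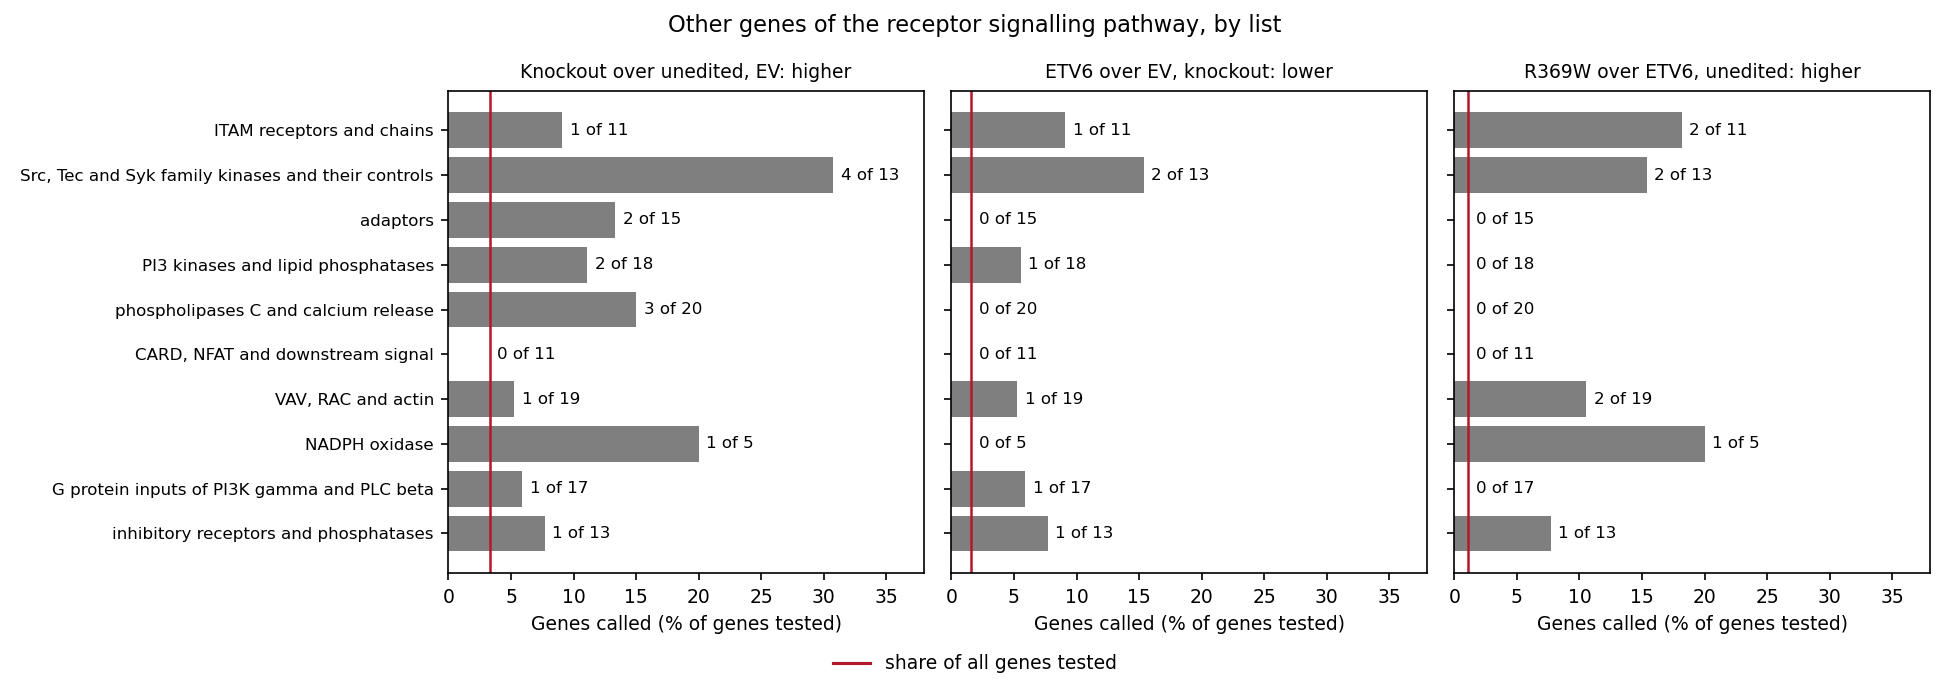
Share of tested genes of each of 10 pathway lists, members left out, that passed as higher in knockout over unedited cells with EV (left), lower with ETV6 over EV in knockout cells (middle) and higher with R369W over ETV6 in unedited cells (right); bars are percent of genes tested, with the counts beside them, and the red line is the share of all tested genes (3.31%, 1.57% and 1.13%). The kinase list has 4, 2 and 2 of 13 genes past the test, and the list of VAV, RAC and actin has 1, 1 and 2 of 19.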

How the data were processed

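The authors deposited raw counts per gene, as whole numbers of reads, for 18 libraries. Per the labels' protocols, RNA was isolated with TRIzol and libraries followed a stranded mRNA protocol of Illumina (TruSeq). Per the submitters' processing notes, HISAT2, SAMtools and HTSeq were used with the GRCh38 build. The tools' versions, the annotation and whether counting used strand are not stated in any source used here. Rows that name no gene, 34.4% to 41.6% of the listed reads, were left out. Gene symbols came from the gene name table used (20801 of 20833 identifiers) and GENCODE release 29 (31 more).

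From the counts, edgeR 4.0.16 in R 4.3.3 kept 12262 genes with filterByExpr, scaled them by TMM and fitted 1 mean per group over all 18 libraries. The two-sided quasi-likelihood F test was adjusted by Benjamini-Hochberg over all 12262 genes, with a threshold of 0.05; called or passed means below it. Each SE was taken as the absolute log2 fold change over the root of F. Interactions are the vector's log2 change in knockout minus that in unedited cells. A count of 3 reads per library corresponds to 0.156 to 0.246 CPM, a limit that covers counting error only. The series text calls the libraries of a group biological replicates, and p-values measure only the spread between them. Any 2 libraries of a group differed beyond sampling noise (38.9% to 61.7% of genes with p under 0.05).

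The members, pathway lists and marker lists were chosen with earlier results of these data known. From each pathway list the called gene of lowest adjusted p was named, per direction, in knockout EV against unedited EV, knockout ETV6 against knockout EV and unedited R369W against unedited ETV6; genes like VAV1, SYK and PIK3CG are the 3 most correlated. Some genes that this rule selects are not reported here. PAG1, TEC and TXK are named from a count, outside this rule, after their values were seen. Replicate numbers were checked by correlating deviations from group means across genes: same-numbered libraries had 0.736 to 0.901 in unedited cells (others -0.630 to 0.0809) and 0.792 to 0.869 between knockout EV and ETV6 (others -0.623 to -0.142), so the numbers pair these. Knockout R369W libraries had -0.566 to -0.149 with their own number, so they share only a number with the rest.

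Alternatives were DESeq2 1.42.0, RLE scaling, no filter on low counts, the 2 groups alone, a replicate block, leaving out each library, and, added after seeing the data, leaving out both libraries of doubtful code. The fit was tested on simulated data. Figures were drawn with Matplotlib 3.10.9.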

Additional observations from a re-analysis of the deposited data

How the results depend on the processing

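With the 2 groups of a comparison fitted alone, called members numbered 4 (7 in the full fit) for knockout EV against unedited EV, 0 (7) for unedited ETV6 against unedited EV, 5 (8) for unedited R369W against unedited ETV6 and 2 (6) for knockout ETV6 against unedited EV, and 7 (8) both for knockout ETV6 against knockout EV and for knockout R369W against knockout ETV6; fewer libraries then set the spread. Without the low-count filter, 3 calls were lost, TESPA1 in knockout EV against unedited EV and SYK and PIK3R5 in knockout ETV6 against unedited EV. DESeq2 added 3 calls, LAT in knockout ETV6 against knockout EV and the following 2, and RLE changed none. For R369W against EV in unedited cells, DESeq2 called 1 and the replicate block 5, against 0, and DESeq2 called 1 R369W interaction, against 0. The replicate block on knockout R369W against knockout ETV6 gave 0 called members, against 8, and called 0 of the 137 other pathway genes in that fit. It joins libraries that share only a number. The knockout R369W libraries correlated at 0.722 to 0.891 with a library of another number of each other vector, and no crossed pairing was fitted. No share of all genes called is given here for the 2 groups alone, the block on knockout R369W, the block across genotypes or fits leaving out 1 library. Their counts of members therefore have no share to be read against. The block across genotypes called 9 members for knockout EV against unedited EV (7 without it) and 6 for knockout ETV6 against unedited EV (6), whose groups share only numbers 2 and 4. Beside these and the blocked calls given with the results, the block changed no count of called members. Leaving out 1 library at a time gave 2 to 7 called members for unedited ETV6 against unedited EV. Values near 0 changed sign: the ETV6 interaction of SYK (-0.0013) was 0.0078 with RLE and with DESeq2, 0.0067 without the low-count filter and 0.0027 with the block, and the R369W interaction of SH3BP2 (-0.06) was 0.0145 without the 2 libraries of doubtful code. Leaving out 1 library gave -0.136 to 0.291 for VAV1 in knockout R369W against knockout EV, -0.319 to 0.619, -0.0237 to 0.784 and -0.271 to 0.735 for FYB1 in unedited ETV6 against EV, R369W against EV and R369W against ETV6, -0.0787 to 0.104 and -0.0987 to 0.162 for the ETV6 interactions of SYK and PLCB2, and -0.184 to 0.0524 and -0.172 to 0.00402 for the R369W interactions of SH3BP2 and NCF4. Depth limits FYB1 and PIK3R5 in unedited cells, where libraries held few reads of each. The unedited EV levels of LAIR1, CD79A and CXCR4 have the same limit, at 9, 13 and 24 reads in all.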
